A study of Mus musculus with 6 samples.

Results

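The genes described here encode the last stages of mitochondrial respiration: respiratory complex III, cytochrome c, respiratory complex IV and ATP synthase. They were chosen by symbol, as the rows of the deposited gene table whose names begin with Uqcr, Uqcc, Cox4 to Cox8, Cox10 to Cox20 or Atp5, together with Cyc1, Cycs and the mitochondrially encoded mt-Co, mt-Atp and mt-Cytb genes. The rule took 65 of the 21959 rows, 59 from the nuclear genome and 6 from the mitochondrial genome.

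The study sequenced poly-A selected RNA from the paraventricular thalamus (PVT), a midline nucleus of the mouse thalamus, as 6 bulk libraries. Of these, 3 came from mice after chronic constriction injury (CCI, a ligature around a peripheral nerve that is used as a model of neuropathic pain; replicates 1 to 3) and 3 from untreated controls (labelled PVT_WT; replicates 4 to 6). Both groups carried the wild-type genotype (WT), and the labels gave brain as the tissue and no age, strain or time after injury. The design text named 30 mice per group but not how many went into each library. The p-values therefore reflect variation among these 6 libraries, and some of it may be technical.

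Complex III takes electrons from ubiquinol and passes them through the Rieske iron-sulphur protein and cytochrome c1 to cytochrome c, a small soluble carrier, and complex IV passes them from cytochrome c to oxygen. Both pump protons out of the mitochondrial matrix, and ATP synthase makes ATP as the protons return through its ring of c subunits. Each complex joins subunits translated inside mitochondria with subunits imported from the cytosol, and neurons, which spend much ATP on ion pumping and synaptic transmission, depend on them.

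The mitochondrial members shared sequence with the nuclear genome, and this bears on several of the values given for them. In the GENCODE M21 annotation (build GRCm38), 7 pseudogenes in chr1:24611535-24616197 copy a run of mitochondrial genes. All 681 aligned bases of mt-Co2 (684 bp in the deposited table) were identical to the pseudogene Gm28661, all 678 of mt-Atp6 to Gm10925 and all 783 of mt-Co3 to Gm28437. A stretch from bases 313 to 372 of mt-Co2 and the same stretch of its copy are shown because a read from either would carry the same letters. No base differs, so none is in capitals.
mt-Co2: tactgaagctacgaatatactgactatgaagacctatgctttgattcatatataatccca
Gm28661: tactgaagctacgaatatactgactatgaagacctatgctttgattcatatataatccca
In mt-Co1, only the last 483 bases (31.3% of the gene) had a copy, Gm29216, and 482 of them were identical. The single substitution, A1066T counted from the first base of mt-Co1, is in capitals in the stretches below, which start at base 1063 of mt-Co1 and base 10 of Gm29216.
mt-Co1: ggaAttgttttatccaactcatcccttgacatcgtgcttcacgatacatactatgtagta
Gm29216: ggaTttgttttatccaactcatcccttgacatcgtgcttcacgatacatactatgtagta
None of the pseudogenes annotated in this region gave an alignment to mt-Cytb or mt-Atp8 long enough to count. The stretch between Gm10925 (ending at 24614651) and Gm28661 (starting at 24614885), where a copy of mt-Atp8 would lie, holds no annotated pseudogene and was not searched. Nor was the rest of the nuclear genome. None of the 7 pseudogenes had a row in the deposited table, and how the authors' counting treated a read that matches both places is not given in the sources used here.

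Many nuclear members are known targets of the transcription factors NRF1, GABP and YY1, and their promoters were searched for short core motifs of each, on both strands, in 300 bases around the start site (250 before, 50 after; RefSeq, GRCm38.p6). Of the 59 nuclear members, 44 matched a promoter by symbol. The NRF1 letters CGCATGCG stood in 8 of 44 (18.2%), against 2.07% of the 27025 symbols with a promoter. The GABP letters CCGGAAG or CTTCCGG stood in 16 (36.4%, against 9.93%), and the YY1 letters AAGATGGC or GCCATCTT in 6 (13.6%, against 3.19%). A GABP match and a YY1 match can overlap at their shared AAG. A pair of promoters with the NRF1 letters and a pair with the GABP letters are shown, in each case from 1 gene that was lower and 1 that was higher in CCI, with the motif in capitals.
Cycs: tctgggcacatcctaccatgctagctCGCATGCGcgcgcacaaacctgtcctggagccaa
Atp5g2: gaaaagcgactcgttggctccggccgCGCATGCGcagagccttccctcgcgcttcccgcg
Uqcr11: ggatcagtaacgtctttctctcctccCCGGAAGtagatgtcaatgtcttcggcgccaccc
Atp5e: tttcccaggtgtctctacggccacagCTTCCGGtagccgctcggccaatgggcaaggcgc
These windows lie on the minus strand at chr6:50566597-50566656, chr15:102671055-102671114, chr10:80406854-80406913 and chr2:174464170-174464229 (GRCm38.p6), all before the start site. Among matched members, the NRF1 letters stood in 5 of 21 that were lower in CCI and 2 of 19 that passed in neither direction. The GABP letters stood in 6 of the 21 and 8 of the 19. A match is a string of letters and not a site shown to be bound.

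Total counts ran from 7989139 to 10529886 in the CCI libraries and from 12337448 to 15438268 in the controls. The trimmed mean of M-values (TMM) factors, which scale libraries so that most genes balance, were 1.21 to 1.25 in CCI and 0.69 to 0.90 in the controls. Levels are given as CPM, the usual scale of counts relative to library size, here with TMM applied, in the order of replicates 1, 2, 3 and 4, 5, 6. Control replicate 5 stood apart in the deposited FPKM values, which are counts per gene length and library total. Its correlations of log2(FPKM + 1) were 0.973 and 0.976 to the other controls, which correlated at 0.995 with each other. All 7 thalamic markers, among them Tcf7l2 and Calb2, were detected, were lower in CCI by edgeR's test, and summed to 1375 to 2127 CPM in CCI against 4854 to 7692 CPM in the controls. Of the other lists, 6 of 8 oligodendrocyte markers, all 6 tested hippocampal and cortical markers and all 5 GABAergic markers were higher in CCI, and their sums did not overlap between groups (18490.4 to 24364 against 7154 to 13908 CPM, 160.0 to 192 against 58.3 to 74.9 CPM, and 103 to 371 against 48.0 to 74.8 CPM). Pan-neuronal markers summed to 3385 to 3729 CPM in CCI and 7066 to 9306 CPM in the controls (1 higher and 1 lower of 7). Most of that gap came from Snap25, the 1 that was lower (mean 1472 CPM in CCI and 5553 CPM in the controls). Map2 was higher, and the other 5 did not pass. No marker was at 0 in every library. Of the remaining lists, 2 of 9 astrocyte markers were higher and 2 lower, 3 of 5 oligodendrocyte precursor, 2 of 7 microglia, 2 of 5 endothelial and 2 of 5 ependymal markers were higher, and 2 of 5 habenula markers were lower. The astrocyte sum was lower in CCI (3645 to 4368.5 against 7914 to 10586 CPM), mostly through Aldoc (mean 1117 against 5333 CPM). Sums of oligodendrocyte precursor, microglia and endothelial markers were higher in CCI without overlap, and those of ependymal and habenula markers overlapped. The endothelial gap came mostly from Flt1 (mean 74.6 CPM in CCI and 49.9 CPM in the controls). Cdh5 was higher too, at few CPM (mean 3.22 against 1.44). Cldn5, Pecam1 and Tek did not pass and had negative log2 fold changes (-0.37, -0.20 and -0.23). None of the 6 choroid plexus markers passed, and their sum ran from 1101 to 7595 CPM among the controls and from 4375 to 5245 CPM in CCI. The part of these differences in cell markers in the results below was not tested. In bulk RNA, fewer cells of a type and less RNA per cell cannot be told apart.

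Among the 61 members with enough counts to test, 29 were lower in CCI (47.5%), 3 were higher (4.92%) and 29 passed in neither direction, at an adjusted p under 0.05 in edgeR's quasi-likelihood test over all 14259 tested genes. Over all those genes, 25.3% were lower and 27.0% higher. Values with ± beside an adjusted p are log2 fold changes of CCI over control with their standard errors. The members' median log2 fold change was -0.77, against 0.06 for all tested genes. All 3 CCI libraries lay below all 3 controls in 37 members (60.7%, against 29.4% of all tested genes) and above them in 4 members (6.56%, against 33.6%), namely Cox6b2, Cox8b, Atp5e and Atp5g2. By genome, 29 of 56 nuclear members were lower and 3 higher, with a median of -0.77. None of the 5 tested mitochondrial members passed in either direction, with a median of 0.00, and the difference between the genomes was not tested. The other 4 members had too few counts to test: Cox8c, a testis isoform, and a second Atp5o row had no count in any library, Cox20, a chaperone of the Cox2 subunit, had 1 to 8 counts per library, and mt-Atp8 had 0 to 8.

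**Figure D1:**
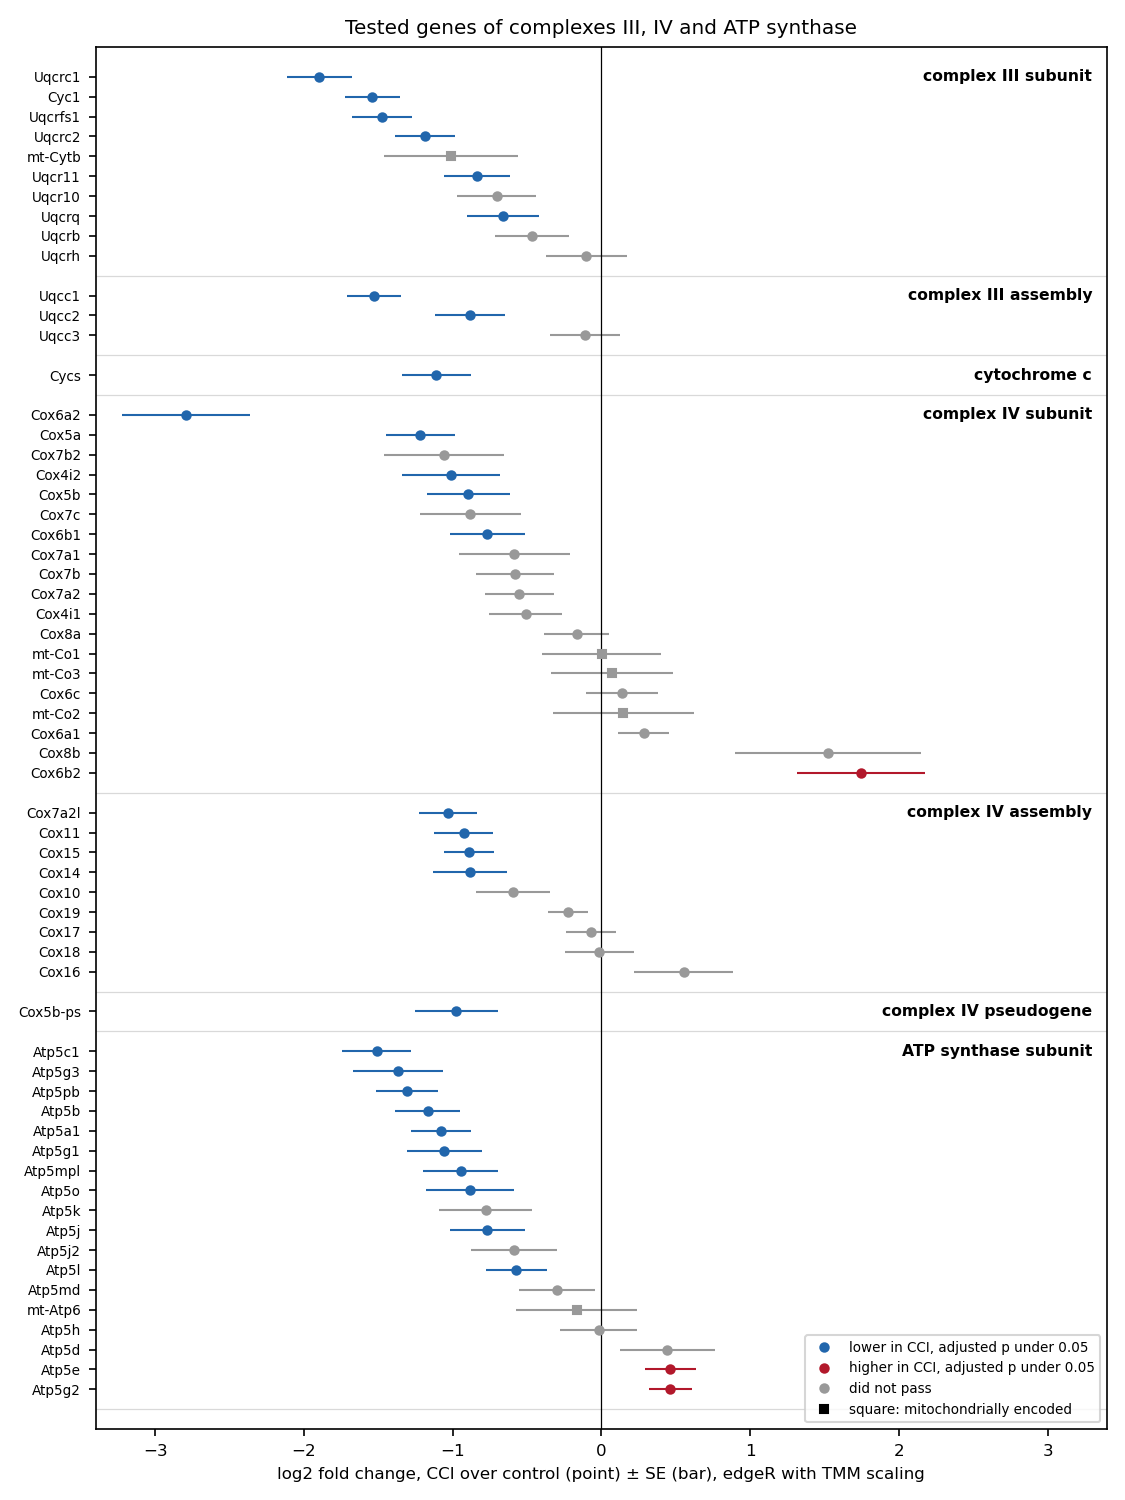
Log2 fold change of CCI over control (x axis, point) with its standard error (bar) for the 61 tested members, grouped by role on the y axis; squares mark mitochondrially encoded genes, and n = 3 libraries per group. Blue points (29 members) were lower and red points (3 members) higher in CCI, and scaling by total counts moved these counts to 12 and 11. Uqcrc1, Cyc1, Uqcrfs1 and Uqcrc2 sit farthest left among the complex III subunits.

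The counts depended on the scaling of the libraries. With total counts in place of TMM, the median of all genes moved up by 0.59 on the log2 scale, and 12 members were lower and 11 higher, against 9.72% and 45.4% of all genes. The nuclear members' median was then -0.13, against 0.65 for all genes, so it lay below the all-gene median under both scalings. The 12 were Uqcrc1, Uqcrc2, Uqcrfs1, Cyc1, Uqcc1, Cycs, Cox5a, Cox6a2, Cox7a2l, Atp5c1, Atp5g3 and Atp5pb, all of them also lower with TMM. Correction for the table's gene length and mean expression together left 8 lower and 19 higher (15.6% and 22.5% of all genes) and turned the nuclear median to 0.28. Correction for coding length and GC content left 21 lower and 8 higher (21.4% and 23.5% of all genes). Leaving out CCI replicate 1 left 17 members lower and 1 higher, against 18.2% and 20.0% of all genes. Leaving out CCI replicate 2 left 19 lower and 1 higher, against 19.8% and 21.6%. Leaving out CCI replicate 3 (20.8% of all genes higher) or control replicate 6 (21.3%) also left 1 higher, and leaving out control replicate 5 (31.5%) left 7. Uqcrc1, Uqcc1, Cox6a2 and Cox6b2 passed in the same direction in every one of the alternatives that tested them (17 for the first 3 genes, 16 for Cox6b2), and 7 further members (Atp5pb, Atp5c1, Atp5g3, Uqcrfs1, Cyc1, Cox5a and Uqcrc2) failed only in the correction for length and mean expression.

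In complex III, 8 of 13 members were lower (61.5%, against 25.3% of all genes) and none higher (27.0% of all genes). Their median log2 fold change was -0.88. With total counts 5 were lower and 2 higher (9.72% and 45.4% of all genes). With the correction for table length and mean expression 2 were lower and 4 higher (15.6% and 22.5% of all genes). Leaving out CCI replicate 1 or CCI replicate 2 left 5 lower (18.2% and 19.8% of all genes) and none higher (20.0% and 21.6%). Uqcrc1, Cyc1, Uqcrfs1 and Uqcrc2 had the lowest log2 fold changes of its subunits. Uqcrc1 (chr9:108765701-108778691, GRCm39), a large matrix-facing core protein, was at 237, 279 and 192 CPM in the CCI libraries and 782, 970.3 and 879 CPM in the controls. Every CCI library lay far below every control, and the log2 fold change was -1.89 ± 0.22, edgeR adjusted p = 0.000342. The partner core protein Uqcrc2 was at 155, 199.6 and 131 CPM in the CCI libraries and 338, 404 and 363 CPM in the controls, and it fell as well (-1.19 ± 0.20, edgeR adjusted p = 0.00184). Counts of Uqcrc1 per count of Uqcrc2 in the same library, a ratio that does not depend on the scaling of libraries, were 1.52, 1.397 and 1.46 in the CCI libraries and 2.31, 2.400 and 2.42 in the controls. The CCI ratios all lay below the control ratios.

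Cyc1 (chr15:76227723-76230460), which encodes cytochrome c1, was at 191, 235 and 201 CPM in the CCI libraries and 555, 656 and 611 CPM in the controls (-1.54 ± 0.19, edgeR adjusted p = 0.000395). Uqcrfs1 (chr13:30724291-30729345), the Rieske protein, was at 291, 308 and 229.9 CPM in the CCI libraries and 682, 808 and 813 CPM in the controls (-1.48 ± 0.20, edgeR adjusted p = 0.000686). Neither gene's CCI values came near its control values. Of the small supernumerary subunits, Uqcr11 was at 328 ± 33.3 CPM in CCI and 586 ± 141 CPM in controls (SD, n = 3; -0.84 ± 0.22, edgeR adjusted p = 0.0129), and Uqcrq also fell (-0.66), though it passed the other way under the correction for table length and mean expression (0.74). Uqcr10, Uqcrb and Uqcrh, the hinge protein that helps cytochrome c dock, did not pass, with log2 fold changes of -0.70, -0.47 and -0.10. Counts of Uqcrc1 per count of Uqcrh were 1.37, 1.504 and 0.979 in the CCI libraries and 5.14, 3.28 and 5.96 in the controls. That ratio separated the groups without overlap. These genes had the lowest and the highest log2 fold change of the complex III nuclear subunits, so the separation restates those values and is not further evidence.

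Cycs (chr6:50539543-50543518), the somatic cytochrome c that also triggers apoptosis when released, was at 264, 275 and 224 CPM in the CCI libraries and 449, 719 and 476 CPM in the controls. All CCI libraries lay below the lowest control, with a log2 fold change of -1.11 ± 0.23, edgeR adjusted p = 0.00443. Mouse Cycs has many processed pseudogene copies, so part of its reads may match other places.

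Complex IV was mixed. Of its 29 tested members, 10 were lower and 1 higher (34.5% and 3.45%, against 25.3% and 27.0% of all genes; median -0.58). Of its 16 tested nuclear subunits 5 were lower and 1 higher (31.2% and 6.25%). DESeq2's Wald test called 16 of the 29 lower (28.1% of all genes), and the correction for table length called 6 (23.7% of all genes). With total counts 3 were lower and 6 higher (9.72% and 45.4% of all genes). The share of lower members was then close to that of all genes. With the correction for table length and mean expression 6 were lower and 10 higher (15.6% and 22.5% of all genes). Leaving out CCI replicate 1 left 5 lower (18.2% of all genes). Leaving out CCI replicate 2 or CCI replicate 3 left 6 (19.8% and 19.2% of all genes). Each time 1 was higher (20.0%, 21.6% and 20.8% of all genes). Cox5a (chr9:57428557-57439709), a nuclear subunit, was at 38.3, 48.7 and 51.2 CPM in the CCI libraries and 76.8, 138 and 107 CPM in the controls (-1.22 ± 0.23, edgeR adjusted p = 0.00286). Cox5b was at 326, 349 and 368 CPM in the CCI libraries and 449, 937 and 551 CPM in the controls (-0.89 ± 0.28, edgeR adjusted p = 0.0264). Both genes were highest in control replicate 5, and their groups did not overlap. Cox6b1, which sits on the cytochrome c side, also fell (-0.77 ± 0.25, edgeR adjusted p = 0.0315), but under the correction for table length and mean expression Cox5b and Cox6b1 passed the other way (0.60 and 0.64). The abundant subunits Cox4i1, Cox6c, Cox7a2, Cox7b, Cox7c and Cox8a did not pass, with log2 fold changes of -0.51, 0.14, -0.55, -0.58, -0.88 and -0.17. Cox6c passed as higher in 6 of 17 alternatives, among them total counts (0.78, edgeR adjusted p = 0.00653), and Cox7c as lower in 6 of 17. Cox4i1, Cox7a2, Cox7b and Cox8a passed as higher under the correction for table length and mean expression (1.09, 0.69, 0.73 and 1.13). Cox5b-ps, a processed copy of Cox5b on chromosome 13, was lower (-0.98 ± 0.28, edgeR adjusted p = 0.0182). Its counts per count of Cox5b overlapped between groups (0.0797, 0.0906 and 0.0691 in the CCI libraries and 0.0818, 0.0858 and 0.0844 in the controls), and reads of the parent gene and the copy may not be told apart.

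Several complex IV subunits come in tissue-specific pairs, and these gave the most extreme values among the members. Cox6a2 (chr7:127804607-127805559), known as the heart and muscle isoform, was at 32.7, 29.9 and 26.7 CPM in the CCI libraries and 97.9, 359 and 161 CPM in the controls. Control replicate 5 was the highest and its fellow controls were still far above every CCI library, and the log2 fold change of -2.79 ± 0.43, edgeR adjusted p = 0.0011 was the lowest of the 61. Without control replicate 5 it was -2.16 (edgeR adjusted p = 9.2e-06). Its partner Cox6a1, the isoform of most tissues, was at 207, 232 and 269.7 CPM in the CCI libraries and 182, 189.8 and 209.9 CPM in the controls and did not pass (0.29 ± 0.17, edgeR adjusted p = 0.191). Counts of Cox6a2 per count of Cox6a1 were 0.157, 0.129 and 0.0989 in the CCI libraries and 0.539, 1.89 and 0.768 in the controls, and the mean of this ratio was 8.30-fold lower in CCI, or 5.08-fold without control replicate 5.

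Cox6b2 (chr7:4754791-4756093), known as the testis isoform, moved the opposite way from low counts, 21, 37 and 36 in the CCI libraries and 8, 11 and 7 in the controls. All CCI libraries lay above all controls (1.75 ± 0.43, edgeR adjusted p = 0.00919), and its counts per 100 counts of Cox6b1 were 0.383, 0.594 and 0.479 in the CCI libraries and 0.09596, 0.0995 and 0.0624 in the controls. Cox8b, a heart and muscle isoform, was also above every control in each CCI library (41, 51 and 53 counts in the CCI libraries and 17, 25 and 3 counts in the controls) but did not pass (1.53 ± 0.63, edgeR adjusted p = 0.068). It passed in 8 of the 16 alternatives that tested it, among them voom (adjusted p = 0.0267), DESeq2's Wald test (adjusted p = 0.0489) and the fit without control replicate 5 (2.32, edgeR adjusted p = 0.0042). Cox4i2, an isoform linked to low oxygen and to lung, was lower at 1.29 ± 0.1799 CPM in CCI and 2.63 ± 0.394 CPM in controls (-1.01 ± 0.33, edgeR adjusted p = 0.0304). That call passed in 6 of 17 alternatives and was lost when any 1 library was left out (edgeR adjusted p from 0.0509 to 0.111), with total counts and with coding length and GC content (edgeR adjusted p = 0.288 and 0.122). Cox7a1 and Cox7b2 did not pass (-0.58 and -1.06), and their counts per count of Cox7a2 and Cox7b overlapped between groups.

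**Figure D2:**
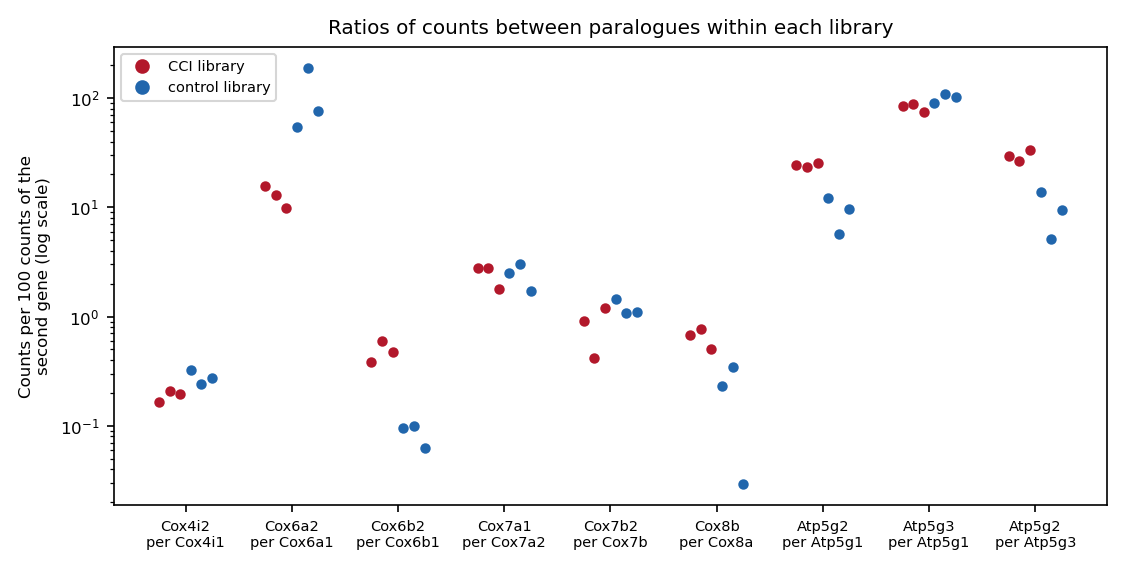
Counts of 1 paralogue per 100 counts of another within each library (y axis, log scale) for 9 pairs of complex IV and ATP synthase genes (x axis), with 1 point per library. Cox6a2 per Cox6a1 was lower in the 3 CCI libraries than in the 3 controls, Cox6b2 per Cox6b1 and Atp5g2 per Atp5g1 were higher, and Cox7a1 per Cox7a2 overlapped; these ratios are the same under every scaling of libraries.

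In ATP synthase, 10 of 18 tested members were lower and 2 higher (55.6% and 11.1%, against 25.3% and 27.0% of all genes). Their median log2 fold change was -0.77. With total counts 3 were lower and 3 higher (9.72% and 45.4% of all genes). With the correction for table length and mean expression none was lower and 5 were higher (15.6% and 22.5% of all genes). Leaving out CCI replicate 1 left 6 lower and none higher (18.2% and 20.0% of all genes). The catalytic head is built from alpha and beta subunits around a gamma shaft. Atp5a1 (alpha; chr18:77861429-77870569) was at 352, 435 and 325 CPM in the CCI libraries and 807, 699 and 841 CPM in the controls (-1.08 ± 0.20, edgeR adjusted p = 0.00282). Atp5b (beta; chr10:127919142-127926260) was at 481, 594 and 489 CPM in the CCI libraries and 1278, 986 and 1251 CPM in the controls (-1.17 ± 0.22, edgeR adjusted p = 0.00255). Atp5c1 (gamma; chr2:10060827-10085321) was at 404, 480.4 and 373 CPM in the CCI libraries and 999, 1453 and 1125 CPM in the controls (-1.51 ± 0.23, edgeR adjusted p = 0.00108). The 3 genes each had every CCI library below every control. With total counts Atp5a1 (-0.50, edgeR adjusted p = 0.0818) and Atp5b (-0.60, edgeR adjusted p = 0.0589) no longer passed. Counts of Atp5b per count of Atp5a1 were 1.37, 1.36 and 1.505 in the CCI libraries and 1.58, 1.41 and 1.49 in the controls, and these overlapped between groups.

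Atp5e (chr2:174302865-174305898), the small epsilon subunit at the foot of the same shaft, was at 116, 120.0 and 148 CPM in the CCI libraries and 81.5, 105 and 91.7 CPM in the controls and higher in CCI (0.46 ± 0.17, edgeR adjusted p = 0.0488). That call was close to the threshold and passed in 9 of 17 alternatives. It did not pass with DESeq2's size factors, in its Wald test (adjusted p = 0.0848), with no filter, or without any 1 library other than control replicate 5 (edgeR adjusted p from 0.0862 to 0.18). Counts of Atp5c1 per count of Atp5e were 3.48, 4.002 and 2.53 in the CCI libraries and 12.3, 13.8 and 12.3 in the controls, with no overlap. Atp5c1 was lower and Atp5e higher in CCI, so this separation restates their fold changes. Atp5d, the delta subunit of the shaft, did not pass (0.44 ± 0.32, edgeR adjusted p = 0.264), and control replicate 5 was its lowest library at 73.9 CPM. Of the stalk that holds the head still, Atp5pb was at 439, 508 and 397 CPM in the CCI libraries and 1014, 1217 and 1097 CPM in the controls (-1.31 ± 0.21, edgeR adjusted p = 0.00124). Atp5j and Atp5o, the oligomycin sensitivity subunit, were lower, with log2 fold changes of -0.77 and -0.88, whereas Atp5h, another stalk subunit, had -0.02 and overlapping groups. Counts of Atp5h per count of Atp5pb were 0.716, 0.618 and 0.768 in the CCI libraries and 0.234, 0.374 and 0.231 in the controls. This ratio likewise restates the fold changes of the pair.

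The c subunit of the proton ring is encoded by Atp5g1, Atp5g2 and Atp5g3, which differ in their import sequences and give the same mature protein. Atp5g1 was at 267, 288 and 261 CPM in the CCI libraries and 433, 786 and 474 CPM in the controls (-1.05 ± 0.25, edgeR adjusted p = 0.00832). Atp5g3 was at 224, 252 and 197 CPM in the CCI libraries and 388, 864 and 485 CPM in the controls (-1.37 ± 0.30, edgeR adjusted p = 0.00577). Atp5g2 (chr15:102571299-102580787) went the other way, at 65.6, 67.1 and 65.8 CPM in the CCI libraries and 53.2, 44.6 and 46.1 CPM in the controls (0.46 ± 0.14, edgeR adjusted p = 0.0247). The 3 CCI values of Atp5g2 lay close together and above every control. It passed in 13 of 17 alternatives, and not without CCI replicate 1, CCI replicate 2, CCI replicate 3 or control replicate 6 (edgeR adjusted p = 0.087, 0.0837, 0.0616 and 0.0946). The ratio of Atp5g2 counts to Atp5g1 counts was 0.246, 0.233 and 0.252 in the CCI libraries and 0.123, 0.0567 and 0.0973 in the controls, with every CCI library above every control. Of the small membrane subunits, Atp5mpl and Atp5l were lower (-0.95 and -0.57), and Atp5k, Atp5j2 and Atp5md did not pass (-0.78, -0.59 and -0.30).

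Among the tested assembly factors of complexes III and IV, 6 of 12 were lower and none higher (25.3% and 27.0% of all genes). With total counts 2 were lower and 3 higher (9.72% and 45.4% of all genes). With the correction for table length and mean expression 3 were lower and 1 higher (15.6% and 22.5% of all genes). Uqcc1 (chr2:155688814-155772230), which with Uqcc2 binds newly made cytochrome b, was at 67.4, 79.1 and 65.1 CPM in the CCI libraries and 234, 169.6 and 206 CPM in the controls (-1.53 ± 0.18, edgeR adjusted p = 0.000371). Uqcc2 was at 179, 167 and 188 CPM in the CCI libraries and 238, 439 and 306 CPM in the controls (-0.88 ± 0.24, edgeR adjusted p = 0.0136). In both genes the CCI libraries lay below all controls, whereas Uqcc3 overlapped (-0.11 ± 0.24, edgeR adjusted p = 0.71) and was higher with total counts (0.53). Cox15 and Cox10 make the heme A of complex IV, and Cox11 delivers copper. Cox15 (-0.89 ± 0.17, edgeR adjusted p = 0.00287) and Cox11 (-0.93 ± 0.20, edgeR adjusted p = 0.00482) were lower, and Cox10 did not pass (-0.59 ± 0.25, edgeR adjusted p = 0.0744). Cox14, which acts on newly made Cox1 protein, was lower (-0.88 ± 0.25, edgeR adjusted p = 0.0168). Cox7a2l, which joins complexes III and IV into supercomplexes, was at 127, 122 and 107 CPM in the CCI libraries and 203, 299.9 and 223 CPM in the controls (-1.03 ± 0.20, edgeR adjusted p = 0.00277). The copper chaperones Cox17 and Cox19 and the factors Cox16 and Cox18 of Cox2 insertion did not pass, with log2 fold changes between -0.22 and 0.56.

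Per length, mt-Co1 (MT:5328-6872, GRCm39), the catalytic subunit of complex IV, had the highest level of any member, with FPKM of 5345, 5059 and 5146 in the CCI libraries and 2566, 4728 and 2471 in the controls. On the TMM scale it was at 6612, 6463 and 6449.6 CPM in the CCI libraries and 4407, 10652 and 4408 CPM in the controls. The CCI libraries agreed closely, control replicate 5 lay above them and the other controls below. The log2 fold change was 0.00 ± 0.40, edgeR adjusted p = 0.994. mt-Co1 passed as higher in CCI in 4 of 17 alternatives. These were the fit without control replicate 5 (0.54, edgeR adjusted p = 0.0188) and the correction for table length and mean expression (2.14, edgeR adjusted p = 0.000498). The others were limma on log2(FPKM + 1) and log2(FPKM + 0.1) (0.74 in each, limma adjusted p = 0.0448 and 0.0495). mt-Cytb (MT:14145-15288), the only mitochondrial subunit of complex III, was at 623, 518 and 961 CPM in the CCI libraries and 857, 2493 and 885 CPM in the controls and did not pass (-1.01 ± 0.45, edgeR adjusted p = 0.0876). It passed in DESeq2's Wald test (adjusted p = 0.0272) and without control replicate 4 (-1.30, edgeR adjusted p = 0.0419), and in no other alternative. Without control replicate 5, its highest library, the log2 fold change was -0.33 (edgeR adjusted p = 0.223). Within a library, the ratio of mt-Cytb counts to mt-Co1 counts was 0.0943, 0.0801 and 0.149 in the CCI libraries and 0.194, 0.234 and 0.201 in the controls, and here the groups did not overlap.

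The genes with a nearly complete copy on chromosome 1 had levels far below their neighbours. Averaged over the 6 libraries, FPKM was 4219 for mt-Co1 and 850.3 for mt-Cytb but 46.9 for mt-Atp6, 21.2 for mt-Co3 and 16.4 for mt-Co2, although all are processed from long shared transcripts. mt-Nd3 and mt-Nd4l of complex I, copied over 99.1% and 99.0% of their length, were at 5.90 and 0.995. mt-Atp8 was at 1.25, and whether chromosome 1 holds a copy of it outside the annotated pseudogenes was not tested. In counts, mt-Co2 had 106, 67 and 233 in the CCI libraries and 85, 151 and 85 in the controls, with overlapping groups. mt-Atp6 (-0.16 ± 0.41, edgeR adjusted p = 0.752), mt-Co2 (0.15 ± 0.48, edgeR adjusted p = 0.811) and mt-Co3 (0.07 ± 0.41, edgeR adjusted p = 0.893) did not pass, and their levels are uncertain for the reason given with the sequences. Of the complex I genes, mt-Nd4 (1.42), mt-Nd2 (1.36) and mt-Nd3 (1.71), the last with 7 to 67 counts per library, were higher in CCI (log2 fold changes, edgeR adjusted p = 0.00318, 0.0374 and 0.0327).

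**Figure D3:**
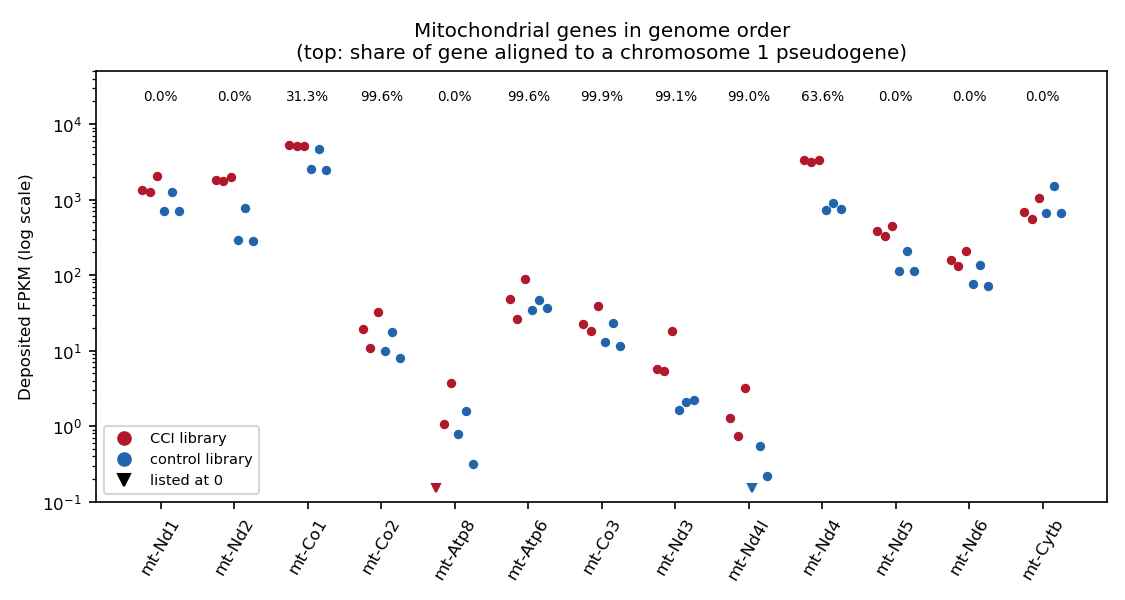
Deposited FPKM (y axis, log scale) of the 13 mitochondrially encoded genes in genome order (x axis), with 1 point per library and the share of each gene that aligned to a chromosome 1 pseudogene printed above it. The genes copied over 99.0% to 99.9% of their length, mt-Co2, mt-Atp6, mt-Co3, mt-Nd3 and mt-Nd4l, averaged 0.995 to 46.9 FPKM, while mt-Co1, copied over 31.3%, averaged 4219.

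Summed by complex, the members' share of all counts does not depend on TMM, and it is given without a test. The nuclear subunits of complex III took 0.247%, 0.261% and 0.246% in the CCI libraries and 0.337%, 0.362% and 0.363% in the controls. Those of ATP synthase took 0.485%, 0.526% and 0.496% in the CCI libraries and 0.611%, 0.628% and 0.634% in the controls. In both complexes the CCI shares lay below the controls with no overlap. The nuclear subunits of complex IV took 0.424%, 0.432% and 0.481% in the CCI libraries and 0.3602%, 0.488% and 0.403% in the controls, and these overlapped. The assembly factors took 0.0979%, 0.09602% and 0.0949% in the CCI libraries and 0.111%, 0.116% and 0.113% in the controls, again without overlap, and the 6 mitochondrial members took 0.9101%, 0.848% and 0.925% in the CCI libraries and 0.478%, 0.908% and 0.462% in the controls. There, control replicate 5 lay among the CCI libraries and the other controls far below. Counts of mt-Co1 per count of Cox4i1, a mitochondrial against a nuclear subunit of the same complex, were 9.94, 9.26 and 9.65 in the CCI libraries and 5.76, 8.32 and 5.22 in the controls, all CCI libraries being above all controls.

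**Figure D4:**
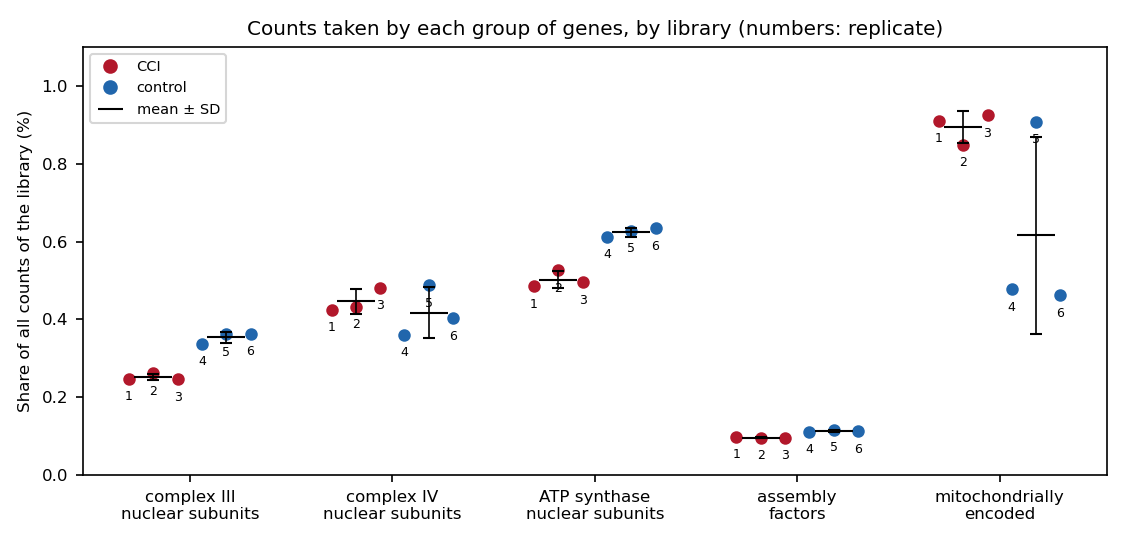
Share of all counts of a library (y axis, percent) taken by nuclear subunits of each complex, assembly factors and mitochondrially encoded members (x axis), 1 point per library labelled with its replicate number, with mean ± SD. Complex III and ATP synthase shares were lower in every CCI library than in every control, complex IV shares overlapped, and control replicate 5 at 0.908% lay within the CCI range of mitochondrial members.

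Within the nuclear members, log2 fold changes went with gene size. Across the 56 tested, Spearman's rho between the log2 fold change and coding length (GENCODE M21) was -0.44, and with mean log2 CPM it was -0.37. Genes share libraries and are not independent, so no p-value is given. Of the 14 members with a coding length of 600 bp or more, 12 were lower and none higher (median -1.18), whereas among all tested genes of that length 23.4% were lower and 29.1% higher (median 0.13). Of the 19 members from 300 to 600 bp, 11 were lower and 2 higher (median -0.77), against 40.5% and 11.5% of all tested genes (median -0.44). Of the 23 members under 300 bp, 6 were lower and 1 higher (median -0.58), against 32.8% and 13.1% (median -0.32). Over all 14214 tested genes with a coding length, rho was 0.40, of the opposite sign, and the gap between the members' median and that of all genes was widest in the longest class. With mean log2 CPM it was -0.44 over all genes. The part of length and expression level in the members' fold changes was not tested beyond the corrections given above.

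**Figure D5:**
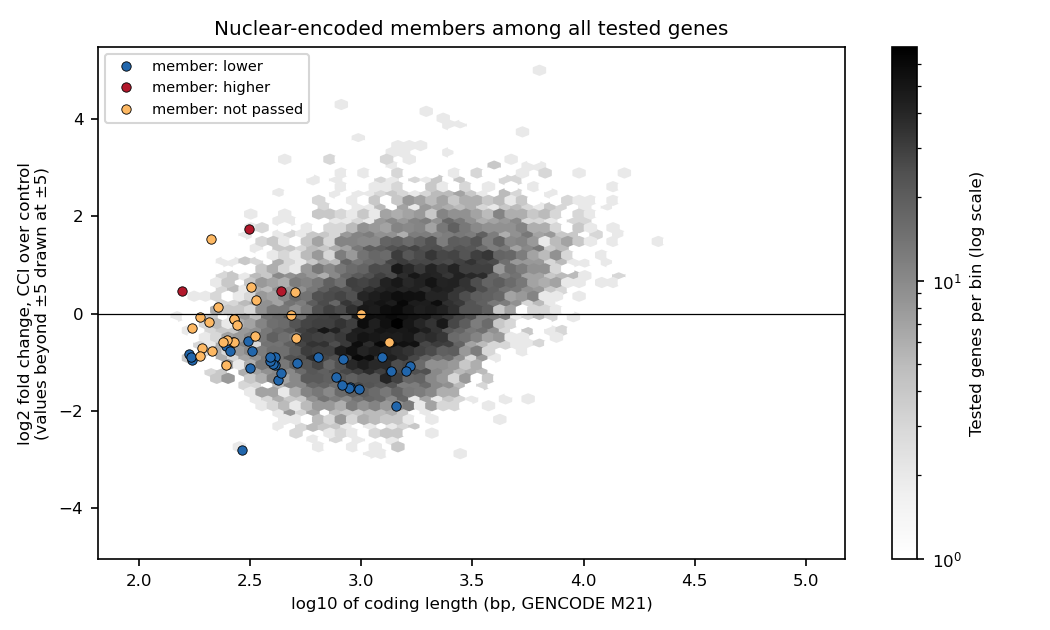
Log2 fold change of CCI over control (y axis) against log10 of coding length in bp (x axis) for tested genes, as grey bins on a log colour scale, with the 56 nuclear members as points coloured by call. Members of 600 bp or more sit below 0, with a median of -1.18, where all genes of that length have a median of 0.13; the nuclear members' median turned positive under the correction for table length and mean expression.

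Other genes that serve the same complexes were listed apart from the rule. Over all tested genes, 25.3% were lower and 27.0% higher, and with total counts 9.72% and 45.4%. All 3 further complex III assembly factors were lower in CCI: Bcs1l, which inserts the Rieske protein (-0.95 ± 0.15, edgeR adjusted p = 0.00129), Lyrm7, its chaperone (-1.80 ± 0.34, edgeR adjusted p = 0.00281), and Ttc19 (-0.68 ± 0.21, edgeR adjusted p = 0.0255). With total counts 1 of the 3 was lower. Of 17 tested complex IV subunits and assembly factors outside the rule, 9 were lower and none higher. With total counts 3 were lower and 3 higher. The correction for table length and mean expression gave 2 and 3 (15.6% and 22.5% of all genes). That for coding length and GC content gave 4 and none (21.4% and 23.5% of all genes). Leaving out CCI replicate 1 gave 5 and none (18.2% and 20.0% of all genes). All 6 ATP synthase assembly and regulatory genes were lower, and 4 of them still were with total counts. Atpaf1 and Atpaf2, chaperones of the beta and alpha subunits, had log2 fold changes of -1.86 ± 0.17, edgeR adjusted p = 0.000188 and -1.64 ± 0.15, edgeR adjusted p = 0.000196. Tmem70, needed for the c ring, had -1.54 ± 0.17, edgeR adjusted p = 0.000287. Of 9 tested genes of general mitochondrial content, such as the import receptor Tomm20 (-1.36 ± 0.16, edgeR adjusted p = 0.000357) and the channel Vdac1 (-1.09 ± 0.21, edgeR adjusted p = 0.00292), 6 were lower and none higher. With total counts 4 were lower, and with the correction for table length and mean expression 1 was.

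Of 12 tested transcriptional regulators of these genes, 6 were higher and 2 lower (27.0% and 25.3% of all genes). With total counts 8 were higher and none lower, and the shares of all genes moved to 45.4% and 9.72%. Ppargc1a, the coactivator that drives mitochondrial gene programmes, was at 66.3, 66.3 and 58.2 CPM in the CCI libraries and 27.1, 30.4 and 23.7 CPM in the controls. It was higher in every CCI library than in any control (1.23 ± 0.16, edgeR adjusted p = 0.000545). Yy1 was higher too (0.88 ± 0.18, edgeR adjusted p = 0.0037). Gabpb1, the partner subunit of GABP, was lower (-1.07 ± 0.21, edgeR adjusted p = 0.00329), as was Tfam, which packages and transcribes mitochondrial DNA (-0.96 ± 0.22, edgeR adjusted p = 0.00688), but neither passed with total counts. Nrf1 was at 22.8, 19.5 and 22.03 CPM in the CCI libraries and 24.99, 13.6 and 18.5 CPM in the controls, and the groups overlapped. Over all 47 tested genes of these lists, 6 were higher and 26 lower, with a median log2 fold change of -0.59.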

How the data were processed

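Per the labels' protocols, poly-A RNA was fragmented and reverse transcribed from random primers. The submitters' processing notes name HISAT2 2.1.0, HTSeq 0.9.1, fastp 0.22.0, StringTie 2.2.1, DESeq 1.38.3 and the GRCm39 build; the strand setting, and the treatment of reads with several matches, are not given in the sources used here. Per the file headers, the authors' deposited table holds a read count and an FPKM value per library and gene, and a gene length in bp. Counts were used as deposited; 51 rows without a symbol (at most 0.0134% of a library) were not reported. No 2 libraries held identical values.

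Groups were taken from the labels. Genes passing filterByExpr were fitted with edgeR 4.0.16 in R 4.3.3 (TMM scaling, quasi-likelihood F-test, Benjamini-Hochberg adjustment, threshold 0.05); errors of log2 fold changes are standard errors, and n is 3 per group. With 3 libraries against 3, an exact permutation test cannot go below 0.10, so single sums and ratios carry no test. The steps were tested on simulated data. Total counts per library limit the precision of members with few counts. Counts are printed for Cox6b2, Cox8b, Cox20, mt-Atp8 and mt-Co2, and CPM for Cox4i2.

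Members and lists were chosen with earlier results of these data known. Named in full were every mitochondrial member, up to 5 members of smallest p per role, and paralogue sets; others are given by value or range. Alternatives were DESeq2 1.42.0 size factors and its Wald test, total counts, filters, limma 3.58.1 (voom; log2 of FPKM plus 1 or 0.1), corrections for length, expression and GC content (the last chosen after seeing the data), and each library left out. GENCODE M21 and RefSeq promoters are on GRCm38 and were joined by identifier or symbol.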

Additional observations from a re-analysis of the deposited data

How the results depend on the processing

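No paired analysis was possible because the groups share no replicate number (1 to 3 and 4 to 6). Scaling changed the counts: total counts, and limma on log2(FPKM + 1) or log2(FPKM + 0.1), which keep each library's total, moved the all-gene median by 0.59, 0.51 and 0.60 on the log2 scale. Members higher in CCI went from 3 to 11 with total counts, 13 on each FPKM scale, 19 with the correction for table length and mean expression, 8 with that for coding length and GC content, and 1 to 7 when 1 library was left out. Members lower in CCI went from 29 to 12, 12 and 12 with total counts and the FPKM scales, 8 with table length and mean expression, and 17 to 36 with 1 library left out. In complex III, 8 lower became 5, 5 and 5, then 2, and 5 to 11 with 1 library left out. In complex IV, 10 lower became 3, 3 and 3, then 6, with 6 for table length alone, 16 in DESeq2's Wald test and 5 to 12 with 1 library left out. In ATP synthase, 10 lower became 3, 3 and 3, then 0, and 6 to 12 with 1 library left out. Members higher in complex III, complex IV and ATP synthase became 2, 6 and 3 with total counts. They became 4, 10 and 5 with table length and mean expression. Over all tested genes, 25.3% were lower and 27.0% higher with TMM, and 9.72% and 45.4% with total counts. With table length and mean expression these shares were 15.6% and 22.5%. The nuclear median of -0.77 became -0.13 with total counts, -0.12 on each FPKM scale, 0.28 with table length and mean expression, and -0.34 with coding length and GC content; the mitochondrial median of 0.00 ranged from -0.33 to 0.72 over all alternatives. The other pathway genes, 6 higher and 26 lower, became 11 and 12 with total counts and on both FPKM scales, with 11 lower for table length and mean expression and 15 for coding length and GC content. DESeq2 size factors, voom and the filters kept the count of lower members within 27 to 32. Among the genes named in full that passed in either fit, log2 fold changes that turned around with table length and mean expression were Atp5a1 0.26, Atp5b 0.0786, Atp5c1 0.0398, Atp5g3 0.0277, Cox14 0.41, Cox4i1 1.09, Cox5b 0.60, Cox6b1 0.64, Cox7a2 0.69, Cox7a2l 0.14, Cox7b 0.73, Cox8a 1.13, Cycs 0.14, Uqcc2 0.29, Uqcc3 0.48, Uqcr11 0.40 and Uqcrc2 0.0306; Uqcc3 also did with total counts (0.53) and on the FPKM scales (0.53 and 0.54). Of the other members that passed in either fit, Uqcrq 0.74, Atp5j 0.51, Atp5mpl 0.30, Atp5h 1.36, Atp5md 1.03, Uqcrb 0.71 and Uqcrh 1.11 also turned around. The cause of these shifts was not tested. Over the named genes and all alternatives, 525 values kept their direction and side of the threshold, 75 no longer passed, 30 newly passed, 45 that passed in neither fit changed sign and 20 turned around as given above. Depth limits Cox6b2, Cox8b, Cox4i2, mt-Atp8 and Cox20, with few counts per library.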
